A study of Homo sapiens with 10 samples.

Results

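MDA-MB-231 is an established line of triple-negative breast cancer cells, classed as basal B and mesenchymal in appearance, and dasatinib inhibits SRC family and ABL kinases. RNA was sequenced from untreated MDA-MB-231 cells (0 h) and from cells treated with 100 nM dasatinib for 24 h, with 2 biological replicates in each group. The genes described here are those of this comparison that passed a filter on low counts, 15727 of the 36687 gene symbols in the count table. The same line was treated for 6, 12 and 48 h, again with 2 libraries each, and the times next to 24 h are used to place its changes in order. All 10 libraries come from 1 unmodified cell line, and by the labels the groups differ in time with the drug. The 0 h samples carry a sham title while their treatment field names dasatinib, and they were used as untreated controls. No untreated cells collected at 24 h were analysed here, so the drug and a day in culture cannot be told apart in any difference from 0 h.

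SRC family kinases carry signals from integrins and growth factor receptors to focal adhesions, to the RAS and ERK pathway and to the actin cytoskeleton. Tension in that cytoskeleton lets YAP enter the nucleus and drive TEAD target genes, and growth factor signalling through AKT keeps FOXO factors out of it. In dividing cells E2F factors switch on replication genes at the entry to S phase, and MYBL2 and FOXM1 switch on mitotic genes later in the cycle. Basal B breast cancer lines express mesenchymal and invasion genes, whereas luminal lines express secretory epithelial genes.

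At 24 h, 1531 genes were higher and 1612 lower than at 0 h, which is 9.73% and 10.2% of the genes tested. A difference of at least 2-fold was found for 705 of the higher genes (4.48% of all genes) and 274 of the lower genes (1.74%), so most of the larger changes were increases. Levels are given as CPM, counts scaled to the TMM-adjusted library total, in replicate order 1 and 2, and differences as log2 fold changes of 24 h over 0 h ± standard error. A gene was called higher or lower at an adjusted p below 0.05 in edgeR's quasi-likelihood test over all 10 libraries. The median log2 fold change over all genes was 0.021. A lower level in these bulk samples cannot separate fewer cells with an RNA from less of that RNA in each cell.

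**Figure D1:**
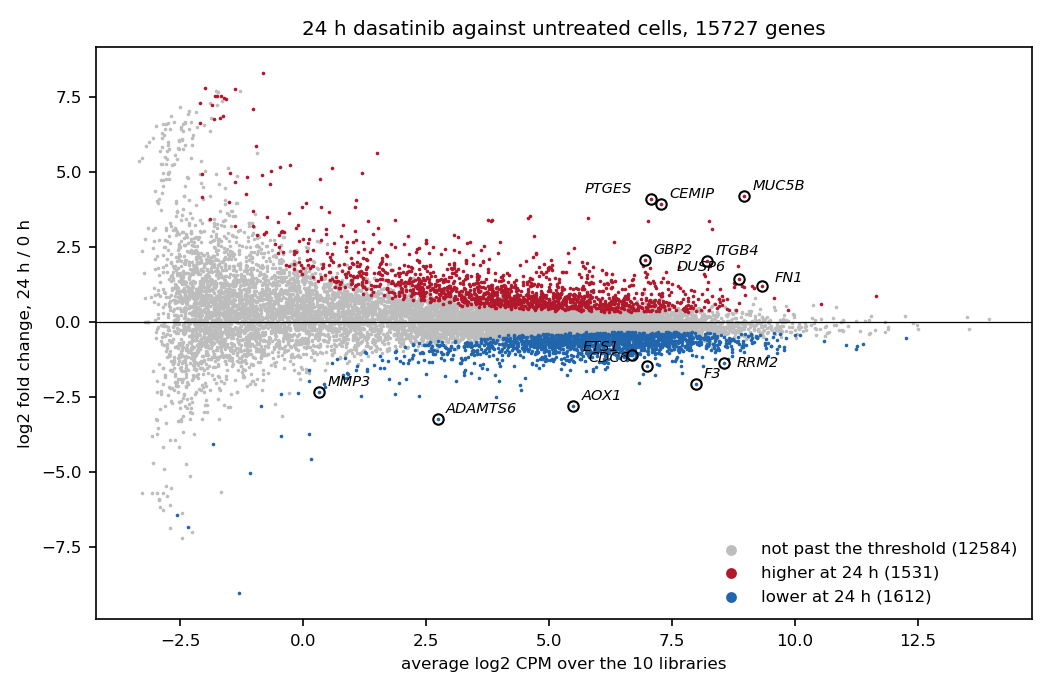
Log2 fold change of 24 h over 0 h (vertical axis) against the average log2 CPM over 10 libraries (horizontal axis), 1 point a gene for 15727 genes. Genes past the threshold are red where higher (1531) and blue where lower (1612), the grey genes did not pass, and 14 genes of the text are circled.

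The libraries held 40942913 to 49133774 counts each. Replicate 1 at 12 h stood apart, with a highest correlation to any library of 0.955, and the 12 h replicates differed by a median of 0.466 on the log2 scale against 0.140 to 0.148 in the other groups. This library enters the shared estimate of the spread. Without both 12 h libraries 3236 genes were called higher and 3451 lower (20.6% and 21.9% of genes). Leaving out 1 of the 4 compared libraries instead lowered both counts, with the lone library of that group assumed to vary like the other groups. Without replicate 1 or 2 at 0 h 656 or 728 genes were higher and 714 or 756 lower, and without replicate 1 or 2 at 24 h 739 or 654 were higher and 709 or 590 lower. For each list of genes, the range in parentheses gives the count called with 1 of the 10 libraries left out in turn: its low end was always reached by leaving out a 0 h or 24 h library and its high end by leaving out a 12 h library.

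The study classes this line as basal B, and the listed basal B and mesenchymal markers passed the filter on low counts. Most luminal and secretory epithelial markers passed it too. All 12 basal B and mesenchymal markers passed, with a summed level of 6513 and 6488 CPM at 0 h. Of 27 luminal and secretory markers 23 passed, and the list summed to 1592 and 1675 CPM at 0 h. *VIM*, the mesenchymal intermediate filament vimentin, was at 1393 and 1313 CPM at 0 h and 1050.2 and 969 CPM at 24 h, whereas the epithelial cadherin gene *CDH1* and the basal keratin genes *KRT5* and *KRT14* did not pass the filter. *TWIST1* and *TWIST2*, from the list of epithelial-mesenchymal transition factors, did not pass it either. Of 14 markers of blood cells, endothelium and basal keratinocytes, 6 passed, and their summed level was 3.29 and 2.29 CPM at 0 h and 9.81 and 9.77 CPM at 24 h. One of them, the endothelial adhesion gene *PECAM1*, was higher (1.77 and 1.12 CPM at 0 h and 4.54 and 4.36 CPM at 24 h, log2 fold change 1.62 ± 0.36, adjusted p = 0.0103), and 3 of the 6 were without both 12 h libraries. The part of other cell types in any result was not tested.

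Replication genes were lower at 24 h in a larger share than any other of the 50 lists. Of 62 genes for origin licensing, the replicative helicase, clamp loading, DNA polymerases and nascent chromatin, 53 were lower (range 41 to 56) and 0 higher (range 0 to 1), with a median log2 fold change of -0.93 against 0.021 over all genes. That is 85.5% and 0%, against 10.2% and 9.73% of all genes. Both 24 h libraries lay below both 0 h libraries for 60 of the 62 genes, a pattern that 34% of all genes showed. *CDC6* (chr17:40287879-40304657, GRCh38), which loads the helicase onto origins, was at 182 and 181 CPM at 0 h and 66.5 and 66.1 CPM at 24 h (log2 fold change -1.45 ± 0.10, adjusted p = 3.25e-05). *MCM10*, which helps to start the loaded helicase, was at 79.2 and 77.7 CPM at 0 h and 26.8 and 24.0 CPM at 24 h (log2 fold change -1.63 ± 0.13, adjusted p = 6.89e-05), the largest drop of the list. *MCM2*, a subunit of the helicase ring, was at 122 and 125 CPM at 0 h and 50.8 and 52.6 CPM at 24 h (log2 fold change -1.25 ± 0.13, adjusted p = 0.000199). In each of these genes the replicates of a group lay close together and the groups far apart. *RFC3*, a subunit of the clamp loader, was at 106 and 107 CPM at 0 h and 44.3 and 46.6 CPM at 24 h (log2 fold change -1.23 ± 0.12, adjusted p = 0.000144). *PCNA*, the sliding clamp of the fork, was at 242 and 247 CPM at 0 h and 129 and 135 CPM at 24 h (log2 fold change -0.89 ± 0.16, adjusted p = 0.00417), a smaller drop from a higher level. The member with the highest fold change was *POLD4*, a small accessory subunit of polymerase delta, which did not pass (4.58 and 4.06 CPM at 0 h and 5.89 and 6.39 CPM at 24 h, log2 fold change 0.51 ± 0.27, adjusted p = 0.224).

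The promoters of these genes held the letters that E2F factors bind more often than promoters at large. The retinoblastoma family holds these factors in check outside S phase. The letters TTTCCCGC, TTTGGCGC, TTTCGCGC or TTTGCCGC, read on both strands, occurred between 250 bases upstream and 50 bases downstream of the start in 43.4% of 53 replication promoters. They occurred in 5.27% of the 11173 promoters found for protein-coding genes tested and in 9.12% of the 1305 promoters found for genes lower at 24 h. Promoters came from RefSeq (GRCh38.p14), with the first listed start used for each symbol, and were matched for 81.7% of the 13678 protein-coding genes. Shown here are 3 replication genes whose match lies in the last 100 bases before the start, with at most 30 of those bases inside an annotated exon, chosen to show the motif in its setting, with the match in capitals. *GINS2* encodes a partner of the helicase, *MCM6* a subunit of its ring and *CDT1* the licensing factor that brings the ring to origins.
GINS2: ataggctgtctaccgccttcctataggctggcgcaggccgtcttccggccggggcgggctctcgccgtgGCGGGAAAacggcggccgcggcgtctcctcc
MCM6: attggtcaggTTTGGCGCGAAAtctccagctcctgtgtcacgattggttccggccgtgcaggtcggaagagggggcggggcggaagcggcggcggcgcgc
CDT1: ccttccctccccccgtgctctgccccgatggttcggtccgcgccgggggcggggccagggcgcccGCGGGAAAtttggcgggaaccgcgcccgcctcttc
The stretches are chr16:85688955-85689054, minus strand for *GINS2*, chr2:135876444-135876543, minus strand for *MCM6*, where 2 matches on opposite strands overlap, and chr16:88803689-88803788, plus strand for *CDT1*, all given 5′ to 3′ in the direction of transcription. All 3 genes were lower at 24 h (log2 fold changes -1.30 ± 0.15, -0.79 ± 0.10 and -0.93 ± 0.16, adjusted p = 0.000396, 0.000783 and 0.00263), and they were picked with their values in view. A match is a run of letters and was not tested as a binding site.

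Genes that supply and repair the fork were lower as well. Of 10 genes of deoxynucleotide supply 7 were lower (range 4 to 9) and 1 higher (range 0 to 1). That is 70% and 10%, against 10.2% and 9.73% of all genes. *RRM2* (chr2:10122568-10211010), the S phase small subunit of ribonucleotide reductase, was at 543 and 508 CPM at 0 h and 213 and 194 CPM at 24 h (log2 fold change -1.37 ± 0.11, adjusted p = 6.8e-05). *RRM1*, its large partner, was at 214 and 217 CPM at 0 h and 115 and 106 CPM at 24 h (log2 fold change -0.96 ± 0.12, adjusted p = 0.000469). The member that was higher was *RRM2B*, the p53-regulated small subunit that serves cells outside S phase (46.8 and 46.5 CPM at 0 h and 72.1 and 57.5 CPM at 24 h, log2 fold change 0.47 ± 0.13, adjusted p = 0.0306). That call was lost with either library at 0 h, 6 h or 48 h or replicate 1 at 24 h left out (adjusted p = 0.0567 to 0.264). In recombination and Fanconi repair, 21 of 31 genes were lower (range 8 to 27) and 0 higher (range 0 to 1). That is 67.7% and 0% of this list. *EXO1*, an exonuclease that resects DNA ends, was at 83.9 and 85.8 CPM at 0 h and 30.7 and 29.3 CPM at 24 h (log2 fold change -1.5 ± 0.12, adjusted p = 6.89e-05). The recombination motor *RAD54L* and the Fanconi core gene *FANCE* were lower with it (log2 fold changes -1.35 ± 0.13 and -1.12 ± 0.13, adjusted p = 0.000137 and 0.000396).

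Regulators of the entry to S phase were lower too, while p27 was higher. Of 8 G1 cyclins, their kinases and activators 5 were lower (range 2 to 7), or 62.5% against 10.2% of all genes. *CDC25A*, the phosphatase that switches on CDK2, was at 68.2 and 69.9 CPM at 0 h and 26.0 and 19.9 CPM at 24 h (log2 fold change -1.59 ± 0.17, adjusted p = 0.000236). *CCNE2*, a cyclin partner of CDK2, was at 16.4 and 15.5 CPM at 0 h and 5.77 and 6.18 CPM at 24 h (log2 fold change -1.42 ± 0.15, adjusted p = 0.000271). *CCND1*, the cyclin that growth factors induce, was not called (729 and 685 CPM at 0 h and 587 and 501 CPM at 24 h, log2 fold change -0.38 ± 0.18, adjusted p = 0.175). Among 5 CDK inhibitors the 1 that passed (range 0 to 2) is 20% of the list, against 9.73% higher over all genes. That gene was *CDKN1B*, which encodes p27. It was at 54.1 and 58.1 CPM at 0 h and 83.2 and 81.6 CPM at 24 h (log2 fold change 0.55 ± 0.16, adjusted p = 0.0331). *CDKN1A*, which encodes p21, was at 118 and 124 CPM at 6 h, but at 49.6 and 56.3 CPM at 0 h and 55.9 and 56.5 CPM at 24 h (log2 fold change 0.085 ± 0.22, adjusted p = 0.834). In a list of 21 genes that joins E2F factors and their partners with pocket proteins, MYB-MuvB members and FOXM1, 12 were lower (range 8 to 16) and 1 higher (range 0 to 2). The shares were 57.1% and 4.76%, against 10.2% and 9.73% of all genes, so the higher share was below the background. Among those lower were the activators *E2F1* and *E2F2* and the repressor *E2F8* (log2 fold changes -0.85 ± 0.12, -1.37 ± 0.18 and -1.04 ± 0.13, adjusted p = 0.00131, 0.00067 and 0.000512). *MYBL2*, an activator of S phase and mitotic genes, was at 256 and 261 CPM at 0 h and 112 and 98.4 CPM at 24 h (log2 fold change -1.29 ± 0.11, adjusted p = 0.000101). The member that was higher was *RBL2*, the pocket protein p130 of resting cells (32.1 and 28.0 CPM at 0 h and 52.8 and 51.6 CPM at 24 h, log2 fold change 0.80 ± 0.18, adjusted p = 0.0101).

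Mitotic genes were lower in large part at 24 h, with a smaller median than replication genes. Of 89 genes for spindle, kinetochore and chromosome segregation, 50 were lower (range 22 to 82) and 0 higher (range 0 to 0), with a median log2 fold change of -0.56. The shares were 56.2% and 0%, against 10.2% and 9.73% of all genes. *MELK*, a kinase of dividing cells, was at 174 and 197 CPM at 0 h and 91.2 and 96.3 CPM at 24 h (log2 fold change -0.98 ± 0.11, adjusted p = 0.000285). *CDCA5*, the cohesin protector sororin, was at 179 and 183 CPM at 0 h and 87.2 and 86.9 CPM at 24 h (log2 fold change -1.05 ± 0.12, adjusted p = 0.00035). The kinase and cyclin that drive mitosis itself were lower by less. *CDK1*, the mitotic kinase, was at 352 and 346 CPM at 0 h and 225 and 211 CPM at 24 h (log2 fold change -0.68 ± 0.13, adjusted p = 0.00443). *CCNB1*, its cyclin, was at 297 and 287 CPM at 0 h and 227 and 226 CPM at 24 h (log2 fold change -0.37 ± 0.10, adjusted p = 0.0267). *MKI67*, which encodes the proliferation antigen Ki-67, was at 419 and 415 CPM at 0 h and 274 and 249 CPM at 24 h (log2 fold change -0.67 ± 0.15, adjusted p = 0.012). *FOXM1*, the late-cycle activator, was lower (259.8 and 255 CPM at 0 h and 174 and 152 CPM at 24 h, log2 fold change -0.66 ± 0.12, adjusted p = 0.00454). The kinases *AURKB* and *PLK1* and the topoisomerase *TOP2A* did not pass, though their fold changes were below 0 (log2 fold changes -0.87 ± 0.28, -0.44 ± 0.16 and -0.47 ± 0.17, adjusted p = 0.0553, 0.0905 and 0.0802).

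Mitotic promoters held another motif. The CHR element TTTGAA is bound by the MuvB core, which is shared by a repressor of resting cells (DREAM) and by the MYBL2 and FOXM1 activator complexes. It occurred in 62.2% of 74 mitotic promoters, in 3.77% of the 53 replication promoters and in 10% of the 11173 promoters of coding genes tested. The E2F letters occurred in 8.11% of the mitotic promoters. The 3 sequences shown were picked by the same rule of position, with the element in capitals. *KIF4A* encodes a chromosome motor, *NCAPG* a condensin subunit and *ESPL1* separase, the protease that parts sister chromatids.
KIF4A: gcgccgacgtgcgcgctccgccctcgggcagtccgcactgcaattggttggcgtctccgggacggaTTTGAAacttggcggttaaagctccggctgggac
NCAPG: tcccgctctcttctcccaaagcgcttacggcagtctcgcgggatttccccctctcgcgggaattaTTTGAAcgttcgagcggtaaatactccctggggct
ESPL1: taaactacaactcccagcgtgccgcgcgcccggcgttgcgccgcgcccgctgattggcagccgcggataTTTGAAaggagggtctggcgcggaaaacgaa
They lie at chrX:70290004-70290103, plus strand (*KIF4A*), chr4:17810879-17810978, plus strand (*NCAPG*) and chr12:53268199-53268298, plus strand (*ESPL1*) of GRCh38.p14. The genes were lower at 24 h (log2 fold changes -0.64 ± 0.10, -0.95 ± 0.17 and -0.51 ± 0.10, adjusted p = 0.0017, 0.00419 and 0.00721) and were again picked with their values in view. None of these shares was tested, since the lists and the motifs were chosen with results known.

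Genes for making ribosomes were the other large group that was lower. Of 64 assembly factors of the large subunit 46 were lower (range 26 to 55), with a median log2 fold change of -0.64. Of 62 factors of the small subunit 39 were lower (range 23 to 55), with a median of -0.68, and none was higher in either list. The lower shares were 71.9% for the large and 62.9% for the small subunit, against 10.2% of all genes. *PAK1IP1*, a factor of large subunit assembly, was at 64.2 and 64.4 CPM at 0 h and 25.9 and 24.2 CPM at 24 h (log2 fold change -1.36 ± 0.12, adjusted p = 0.000108). *EBNA1BP2*, another nucleolar factor of the same subunit, was at 145 and 159.7 CPM at 0 h and 66.8 and 68.2 CPM at 24 h (log2 fold change -1.18 ± 0.11, adjusted p = 0.000153). For the small subunit *WDR3*, *TSR1* and *DHX33* had the smallest adjusted p (log2 fold changes -0.94 ± 0.11, -0.99 ± 0.11 and -0.87 ± 0.11, adjusted p = 0.000391, 0.000354 and 0.000469). In RNA polymerases I and III and their factors, which make ribosomal RNA and tRNA, 15 of 37 were lower (range 4 to 24). That is 40.5% of this list. *POLR3G*, a subunit of one form of polymerase III, was at 46.0 and 42.8 CPM at 0 h and 15.8 and 15.1 CPM at 24 h (log2 fold change -1.53 ± 0.13, adjusted p = 8.4e-05). *TCOF1*, the nucleolar protein treacle, was at 190.2 and 223 CPM at 0 h and 79.6 and 73.2 CPM at 24 h (log2 fold change -1.43 ± 0.18, adjusted p = 0.000623). The E-box CACGTG, which MYC and related factors bind, occurred in 36.4% of 110 promoters of the 2 assembly lists against 9.69% of coding promoters, and the ETS letters CCGGAAGT in 24.5% against 8.23%. In the 1305 promoters found for all genes lower at 24 h the shares were 13.3% and 9.96%.

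Of 11 MYC network genes 2 were higher (range 1 to 3) and 1 lower (range 0 to 2), or 18.2% and 9.09% against 9.73% and 10.2% of all genes. *MYC*, an activator of ribosome genes, was the 1 that was lower, at 128 and 129 CPM at 0 h and 70.9 and 81.6 CPM at 24 h (log2 fold change -0.75 ± 0.19, adjusted p = 0.0195). The other called members were *MXD4*, which competes with MYC for its partner MAX, at 39.3 and 33.6 CPM at 0 h and 109 and 112 CPM at 24 h (log2 fold change 1.60 ± 0.13, adjusted p = 7.28e-05), and its relative *MXI1* (log2 fold change 0.79 ± 0.15, adjusted p = 0.00504). Of 21 chaperones 15 were lower (range 9 to 19) and 1 higher (range 0 to 1), or 71.4% and 4.76%. *HSPD1*, the mitochondrial chaperonin, was at 1066 and 1149 CPM at 0 h and 629 and 559.6 CPM at 24 h (log2 fold change -0.90 ± 0.12, adjusted p = 0.000837), and the mitochondrial *HSPA9* and the cytosolic chaperonin subunit *TCP1* were lower (log2 fold changes -0.82 ± 0.11 and -0.80 ± 0.11, adjusted p = 0.00069 and 0.000799). The member that was higher was the co-chaperone *BAG3* (159.7 and 153 CPM at 0 h and 228 and 227 CPM at 24 h, log2 fold change 0.55 ± 0.15, adjusted p = 0.0267).

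Most ribosomal protein genes, whose products these factors assemble, were not called. Of 77 cytosolic ones 1 was lower (range 0 to 29) and 1 higher (range 0 to 4), and the median log2 fold change was -0.15. These were *RPS23* and *RPS29* (log2 fold changes -0.48 ± 0.13 and 0.74 ± 0.20, adjusted p = 0.0287 and 0.0242), both with processed copies in the genome that can share reads. Each is 1.3% of the list, against 10.2% lower and 9.73% higher over all genes. The count rested on the 12 h libraries, since 29 were called lower and 4 higher without them. Ribosomal protein mRNAs took 6.64% of raw counts in both 0 h libraries and 6.35% and 6.73% at 24 h. On the TMM scale their summed level was 69320 and 69370 CPM at 0 h and 62070 and 63730 CPM at 24 h. Both 24 h libraries lay below both 0 h libraries for 42 of the 77 and above them for 10. Over all genes these patterns held for 34% and 35.4%. Of 76 mitochondrial ribosomal proteins 15 were lower (range 3 to 42), or 19.7%, for example *MRPL3* (log2 fold change -0.62 ± 0.10, adjusted p = 0.00195). Of 74 nuclear-encoded respiratory chain subunits none was called in either direction, with a median of 0.055, but 20 were called higher and 10 lower without both 12 h libraries. Over all genes 20.6% were called higher and 21.9% lower without those libraries. Of 13 mitochondrially encoded mRNAs *ATP8* was lower (115 and 131 CPM at 0 h and 68.2 and 68.8 CPM at 24 h, log2 fold change -0.84 ± 0.15, adjusted p = 0.00392), a gene that overlaps *ATP6*.

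**Figure D2:**
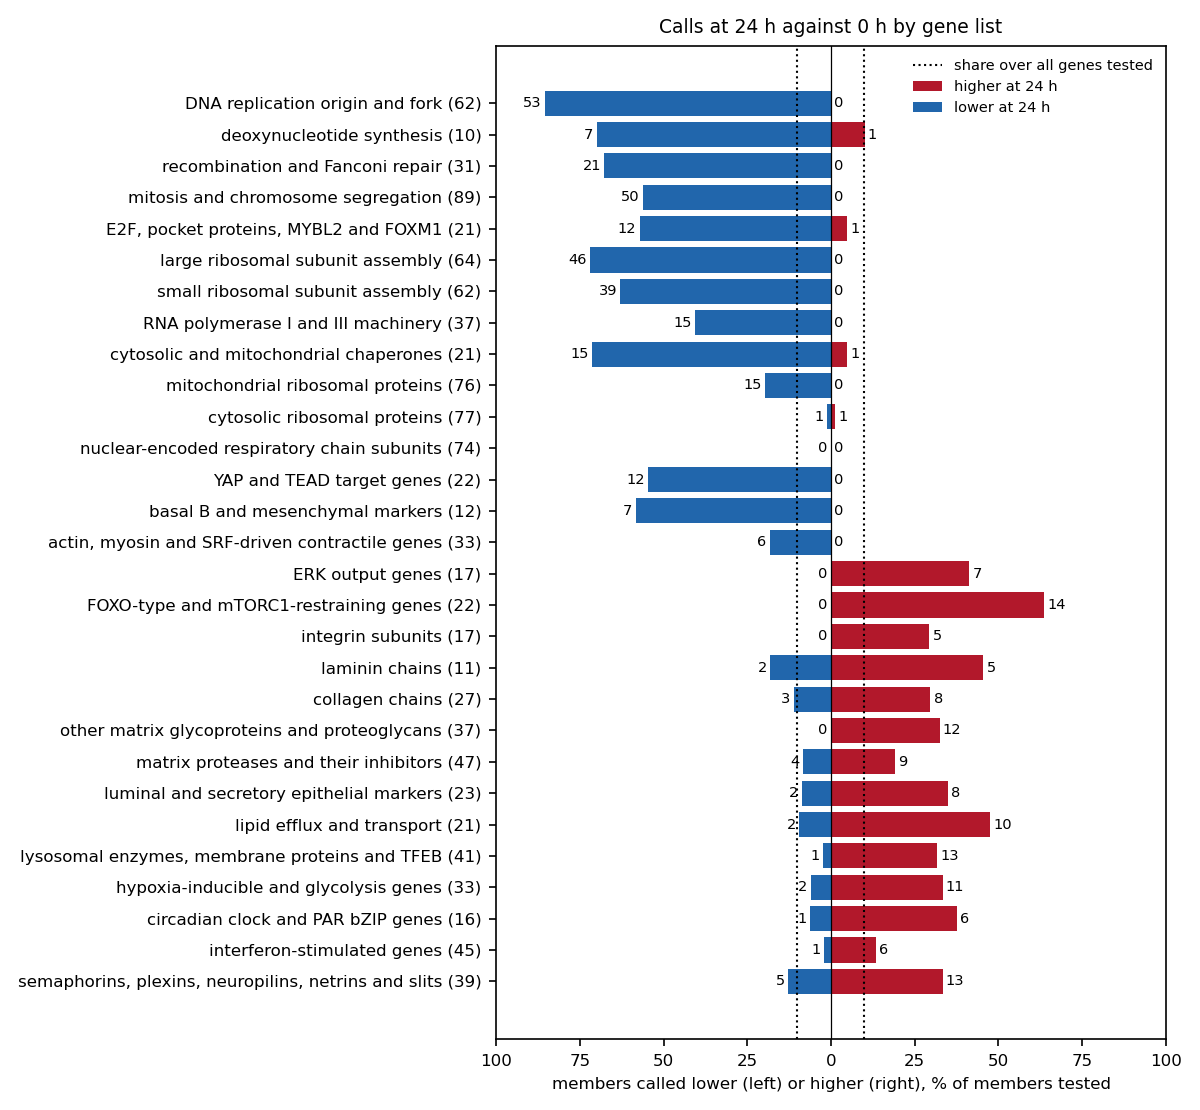
Share of tested members called higher (red, to the right) and lower (blue, to the left) at 24 h against 0 h in 29 gene lists, in % of the members tested, whose number follows each name. Figures at the bar ends are gene counts and the dotted lines mark the shares over all genes tested (9.73% higher, 10.2% lower). Replication and ribosome assembly lists reach far past the lower line, and FOXO-type and lipid efflux lists past the higher one.

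Targets of YAP and TEAD, which report tension and adhesion, were lower in large part. Of 22 targets 12 were lower (range 5 to 15) and 0 higher (range 0 to 1), with a median log2 fold change of -0.51. The shares were 54.5% and 0%, against 10.2% and 9.73% of all genes. *F3*, the tissue factor that starts coagulation, was at 626 and 589 CPM at 0 h and 139 and 151 CPM at 24 h (log2 fold change -2.07 ± 0.14, adjusted p = 3.25e-05). *ANKRD1* (chr10:90912096-90921087), a common readout of YAP activity, was at 462 and 496 CPM at 0 h and 149 and 146 CPM at 24 h (log2 fold change -1.70 ± 0.11, adjusted p = 3.25e-05). *CCN2*, a secreted matricellular protein, was at 381 and 358 CPM at 0 h and 191 and 192 CPM at 24 h (log2 fold change -0.95 ± 0.16, adjusted p = 0.00316). The 24 h values were not the lowest of the course for all of them. At 6 h *ANKRD1* had been at 103 and 110.5 CPM and *CCN2* at 92.1 and 88.5 CPM, below both 24 h libraries. Both genes were higher at 24 h than at 6 h (log2 0.46 ± 0.11, adjusted p = 0.0152 for *ANKRD1* and log2 1.08 ± 0.17, adjusted p = 0.00187 for *CCN2*) while still lower than in untreated cells. *CCN1*, the relative of *CCN2*, was at 1552 and 1667 CPM at 0 h and 737 and 826 CPM at 24 h (log2 fold change -1.04 ± 0.24, adjusted p = 0.0121). The secreted proteins *IGFBP3*, which binds insulin-like growth factors, and *CCDC80* were also lower (log2 fold changes -1.24 ± 0.14 and -1.26 ± 0.14, adjusted p = 0.000321 and 0.000268).

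Basal B and mesenchymal markers were lower in part. Of 12 markers 7 were lower (range 5 to 8) and 0 higher (range 0 to 2), with a median log2 fold change of -0.56. The shares were 58.3% and 0%, against 10.2% and 9.73% of all genes. *ETS1* (chr11:128458765-128587558), an ETS family factor that drives matrix protease genes, was at 176 and 177 CPM at 0 h and 86.5 and 77.3 CPM at 24 h (log2 fold change -1.11 ± 0.10, adjusted p = 0.000138). That level had been reached by 6 h, at 84.4 and 80.9 CPM, and no difference from 6 h was found (log2 -0.013 ± 0.10, adjusted p = 0.953). *MMP3*, the matrix protease stromelysin 1, was low throughout at 3.53 and 2.43 CPM at 0 h and 0.637 and 0.545 CPM at 24 h (log2 fold change -2.33 ± 0.64, adjusted p = 0.0275). *FOSL1*, the AP-1 subunit FRA-1 of invasive cells, was at 372 and 355 CPM at 0 h and 125 and 138 CPM at 24 h (log2 fold change -1.47 ± 0.15, adjusted p = 0.000188). *AXL*, a receptor tyrosine kinase, was at 963 and 1033 CPM at 0 h and 510.0 and 396 CPM at 24 h (log2 fold change -1.14 ± 0.24, adjusted p = 0.00809). *CD44*, the hyaluronan receptor, was at 465 and 456 CPM at 0 h and 253 and 234 CPM at 24 h (log2 fold change -0.92 ± 0.13, adjusted p = 0.000915). These 3 were abundant in untreated cells and their groups were far apart, while *VIM* was lower by less (log2 fold change -0.42 ± 0.12, adjusted p = 0.0333). *LOX*, which crosslinks collagen, did not pass (37.7 and 37.3 CPM at 0 h and 54.6 and 48.2 CPM at 24 h, log2 fold change 0.46 ± 0.18, adjusted p = 0.106). Of 13 factors and markers of epithelial-mesenchymal transition, *VIM* was lower (range 0 to 3 for the list) and *CDH11*, a mesenchymal cadherin, was higher (65.6 and 69.2 CPM at 0 h and 252 and 232 CPM at 24 h, log2 fold change 1.84 ± 0.11, adjusted p = 1.73e-05). Each is 7.69% of the list, against 10.2% lower and 9.73% higher over all genes. The transition factors *SNAI1* and *ZEB1* did not pass (log2 fold changes 0.19 ± 0.18 and 0.22 ± 0.24, adjusted p = 0.529 and 0.578), and *CDH2*, which encodes N-cadherin, was below 1 CPM in all 4 libraries.

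Some feedback genes of the ERK pathway were higher at 24 h. Of 17 ERK output genes 7 were higher (range 6 to 11) and 0 lower (range 0 to 2), with a median log2 fold change of 0.28. That is 41.2% and 0%, against 9.73% and 10.2% of all genes. *DUSP6*, the phosphatase that shuts off ERK in the cytoplasm, was at 208 and 224 CPM at 0 h and 587 and 577 CPM at 24 h (log2 fold change 1.43 ± 0.18, adjusted p = 0.000662). *SPRY4*, an inhibitor of receptor signalling to RAS, was at 325 and 327 CPM at 0 h and 754 and 757 CPM at 24 h (log2 fold change 1.21 ± 0.11, adjusted p = 0.000117). *DUSP4*, a nuclear ERK phosphatase, was at 245 and 247 CPM at 0 h and 589 and 543 CPM at 24 h (log2 fold change 1.2 ± 0.12, adjusted p = 0.00021). In each the treated libraries were far above both controls and the replicates lay close together. *DUSP6* had been at 212 and 195 CPM at 6 h and went on to 1087 and 1118 CPM at 48 h (48 h against 24 h log2 0.92 ± 0.18, adjusted p = 0.0256). *ETV1*, an ETS factor, was at 80.8 and 77.3 CPM at 0 h and 229 and 211 CPM at 24 h (log2 fold change 1.47 ± 0.15, adjusted p = 0.000209). *EGR1*, an immediate early gene of the same pathway, was at 45.3 and 45.8 CPM at 6 h and at 181 and 170.4 CPM at 0 h and 126 and 152 CPM at 24 h (log2 fold change -0.34 ± 0.12, adjusted p = 0.0743). Among 19 AP-1 and immediate early factors 4 were higher (range 1 to 7) and 2 lower (range 2 to 8). The shares were 21.1% and 10.5%, against 9.73% and 10.2% of all genes, so the lower share was near the background. The orphan receptor gene *NR4A2* was at 2.39 and 2.98 CPM at 0 h and 13.1 and 12.2 CPM at 24 h (log2 fold change 2.24 ± 0.17, adjusted p = 5.86e-05), and *NR4A1* and *FOSL2* were higher with it (log2 fold changes 1.08 ± 0.22 and 0.76 ± 0.13, adjusted p = 0.0074 and 0.00338). *BATF3* was lower along with *FOSL1* (log2 fold change -1.38 ± 0.21, adjusted p = 0.00175).

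Genes that FOXO factors induce and genes that restrain mTORC1 made the list with the largest share of higher members. Of 22 genes 14 were higher (range 7 to 17) and 0 lower (range 0 to 0), with a median log2 fold change of 0.66. The shares were 63.6% and 0%, against 9.73% and 10.2% of all genes. *DDIT4*, the mTORC1 inhibitor REDD1, was at 15.2 and 18.5 CPM at 0 h and 97.6 and 118 CPM at 24 h (log2 fold change 2.68 ± 0.20, adjusted p = 4.41e-05). *SESN3*, a sestrin that restrains mTORC1, was at 13.3 and 11.6 CPM at 0 h and 44.7 and 41.1 CPM at 24 h (log2 fold change 1.79 ± 0.18, adjusted p = 0.000199). *CCNG2*, a cyclin of arrested cells, was at 32.2 and 33.4 CPM at 0 h and 100.2 and 98.3 CPM at 24 h (log2 fold change 1.60 ± 0.11, adjusted p = 3.92e-05). These 3 were low in untreated cells and their groups did not come near each other. *KLHL24*, the pyruvate dehydrogenase kinase *PDK4*, *KLF9* and *FOXO1* itself were higher as well (log2 fold changes 2.29 ± 0.23, 1.94 ± 0.27, 1.31 ± 0.20 and 0.80 ± 0.21, adjusted p = 0.0002, 0.000966, 0.00144 and 0.0236). *TXNIP*, which curbs glucose uptake, was at 220.5 and 206 CPM at 6 h and at 83.9 and 84.5 CPM at 0 h and 107 and 114 CPM at 24 h (log2 fold change 0.39 ± 0.11, adjusted p = 0.0257).

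The genes of the drug's own target kinases were mostly not called. Of 30 SRC family and other target kinase genes 5 were higher (range 3 to 7) and 3 lower (range 0 to 4), or 16.7% and 10% against 9.73% and 10.2% of all genes. *SRC* was at 44.2 and 50.4 CPM at 0 h and 52.0 and 51.4 CPM at 24 h (log2 fold change 0.13 ± 0.14, adjusted p = 0.577). *FRK*, a SRC-related kinase of epithelia, was at 3.34 and 2.87 CPM at 0 h and 10.2 and 8.39 CPM at 24 h (log2 fold change 1.58 ± 0.22, adjusted p = 0.000889), and the collagen receptor *DDR1* and the ephrin receptor *EPHB3* were also higher (log2 fold changes 1.07 ± 0.16 and 1.67 ± 0.30, adjusted p = 0.00158 and 0.00372). *ABL2*, an ABL family kinase, was at 185 and 182 CPM at 0 h and 109.8 and 107 CPM at 24 h (log2 fold change -0.76 ± 0.16, adjusted p = 0.00719). *CSK*, the kinase that holds SRC family members inactive, and *EPHB2* were lower too (log2 fold changes -0.51 ± 0.16 and -0.66 ± 0.12, adjusted p = 0.0489 and 0.00403). Among 22 EGFR, AXL, MET and insulin-type receptors and ligands 5 were higher (range 2 to 7) and 4 lower (range 0 to 9). The shares were 22.7% and 18.2%, against 9.73% and 10.2% of all genes. The EGFR ligand *TGFA* was at 33.5 and 36.6 CPM at 0 h and 72.4 and 72.0 CPM at 24 h (log2 fold change 1.04 ± 0.11, adjusted p = 0.000268), and its relative *BTC* was higher (log2 fold change 1.62 ± 0.29, adjusted p = 0.00383). *EREG*, another ligand of the receptor, and the receptor kinase *TYRO3* were lower (log2 fold changes -0.38 ± 0.11 and -0.68 ± 0.17, adjusted p = 0.0348 and 0.0175), and *IRS2*, an adaptor of insulin-type receptors, was higher (log2 fold change 0.62 ± 0.15, adjusted p = 0.0143).

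Most TGF-beta and activin genes were not called. Of 22 TGF-beta and activin ligands, receptors and inhibitors 5 were higher (range 3 to 10) and 2 lower (range 1 to 6), or 22.7% and 9.09% against 9.73% and 10.2% of all genes. *FST*, which encodes the activin antagonist follistatin, was at 225 and 228 CPM at 0 h and 57.5 and 53.6 CPM at 24 h (log2 fold change -2.03 ± 0.22, adjusted p = 0.000251), and *FSTL3*, its relative, was the other that was lower (log2 fold change -0.89 ± 0.16, adjusted p = 0.00423). *INHBB*, an activin subunit, was at 19.3 and 17 CPM at 0 h and 36.5 and 39.2 CPM at 24 h (log2 fold change 1.06 ± 0.16, adjusted p = 0.00133). *TGFBR1*, the type I receptor, was at 50.1 and 47.5 CPM at 0 h and 118 and 105 CPM at 24 h (log2 fold change 1.19 ± 0.21, adjusted p = 0.0031). *SMAD6*, an inhibitory SMAD, was at 17.6 and 14.8 CPM at 0 h and 46.4 and 45.5 CPM at 24 h (log2 fold change 1.5 ± 0.13, adjusted p = 9.25e-05).

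Most cytoskeletal genes were not called. Of 33 actin, myosin and SRF-driven contractile genes 6 were lower (range 3 to 17) and 0 higher (range 0 to 6), or 18.2% and 0% against 10.2% and 9.73% of all genes. *CNN3*, an actin-binding calponin, was at 543 and 557 CPM at 0 h and 313 and 280.5 CPM at 24 h (log2 fold change -0.89 ± 0.12, adjusted p = 0.000942), and the tropomyosins *TPM3* and *TPM1* were lower with it (log2 fold changes -0.78 ± 0.11 and -0.65 ± 0.11, adjusted p = 0.000972 and 0.00318). *ACTB*, which encodes beta-actin and has many processed copies, was at 6139 and 5565 CPM at 0 h and 3948 and 4192 CPM at 24 h (log2 fold change -0.52 ± 0.14, adjusted p = 0.0272). The actin crosslinker *ACTN4* did not pass (log2 fold change -0.12 ± 0.19, adjusted p = 0.722). Among 30 filopodia genes 3 were higher (range 2 to 6) and 5 lower (range 2 to 9), or 10% and 16.7% against 9.73% and 10.2%. Formins, which extend actin filaments, went both ways. *DIAPH3* was at 71.3 and 66.0 CPM at 0 h and 32.1 and 31.5 CPM at 24 h (log2 fold change -1.11 ± 0.15, adjusted p = 0.000884). *DAAM2* was at 1.86 and 2.25 CPM at 0 h and 12.5 and 13.2 CPM at 24 h (log2 fold change 2.65 ± 0.26, adjusted p = 0.000185), and *FMNL2* and *FMNL1* were higher with it (log2 fold changes 0.88 ± 0.15 and 0.40 ± 0.12, adjusted p = 0.00314 and 0.0334). *MYO10*, the motor of filopodial tips, and the CDC42 effector *CDC42EP1* were lower (log2 fold changes -0.40 ± 0.095 and -0.85 ± 0.16, adjusted p = 0.0136 and 0.00398), whereas *CDC42*, *RAC1* and *DIAPH2* did not pass (log2 fold changes -0.23 ± 0.13, -0.43 ± 0.16 and 0.075 ± 0.16, adjusted p = 0.254, 0.0868 and 0.8). Of 7 caveolar genes 3 were lower (range 2 to 3), or 42.9%. *CAV1*, the main coat protein of caveolae, was at 1040.4 and 1024 CPM at 0 h and 637 and 593 CPM at 24 h (log2 fold change -0.75 ± 0.11, adjusted p = 0.00155), and *CAVIN2* and *CAVIN1* were the others (log2 fold changes -0.76 ± 0.11 and -0.56 ± 0.17, adjusted p = 0.00125 and 0.0388).

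Most focal adhesion genes were not called. Of 30 focal adhesion and invadopodia genes 6 were higher (range 2 to 8) and 3 lower (range 0 to 7), or 20% and 10% against 9.73% and 10.2% of all genes. *TNS4*, a tensin, was at 14.0 and 13.5 CPM at 0 h and 48.0 and 49 CPM at 24 h (log2 fold change 1.82 ± 0.13, adjusted p = 3.92e-05), and the CAS family scaffold *NEDD9* and the FAK relative *PTK2B* were higher as well (log2 fold changes 0.85 ± 0.16 and 1.65 ± 0.33, adjusted p = 0.00491 and 0.00626). *PXN*, which encodes paxillin, was at 113 and 119.7 CPM at 0 h and 88.2 and 84.9 CPM at 24 h (log2 fold change -0.43 ± 0.12, adjusted p = 0.0299), and *TNS1* and *FERMT1* were lower with it (log2 fold changes -0.81 ± 0.19 and -0.66 ± 0.20, adjusted p = 0.0142 and 0.0398). Of 17 integrin subunits 5 were higher (range 4 to 8) and 0 lower (range 0 to 0), or 29.4% and 0%. *ITGB4* (chr17:75721459-75757818), the laminin-binding subunit of hemidesmosomes, was at 96.1 and 94.6 CPM at 0 h and 402 and 375 CPM at 24 h (log2 fold change 2.03 ± 0.16, adjusted p = 6.89e-05). *ITGA10*, a collagen receptor subunit, was at 5.18 and 4.79 CPM at 0 h and 13.8 and 16.1 CPM at 24 h (log2 fold change 1.58 ± 0.17, adjusted p = 0.000244). The others were *ITGB5*, *ITGB3* and *ITGA1* (log2 fold changes 0.66 ± 0.11, 1.03 ± 0.19 and 1.12 ± 0.21, adjusted p = 0.00222, 0.00399 and 0.00473).

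Matrix genes were called higher more often than lower in each of 5 lists, though most members of 4 of them were not called. Of 11 laminin chains 5 were higher (range 1 to 5) and 2 lower (range 0 to 2), or 45.5% and 18.2% against 9.73% and 10.2% of all genes. *LAMA5*, an alpha chain of epithelial basement membranes, was at 285 and 242 CPM at 0 h and 584 and 602 CPM at 24 h (log2 fold change 1.17 ± 0.19, adjusted p = 0.00236). *LAMA3*, *LAMB2* and *LAMC1* were higher with it (log2 fold changes 1.26 ± 0.39, 0.54 ± 0.13 and 0.53 ± 0.13, adjusted p = 0.0438, 0.0139 and 0.0172), and *LAMB1* and the weakly expressed *LAMA1* were lower (log2 fold changes -0.73 ± 0.16 and -1.18 ± 0.37, adjusted p = 0.0108 and 0.0488). Of 27 collagen chains 8 were higher (range 3 to 11) and 3 lower (range 0 to 5), or 29.6% and 11.1%. *COL6A1*, a chain of microfibrillar collagen VI, was at 98.7 and 91.3 CPM at 0 h and 182 and 187 CPM at 24 h (log2 fold change 0.96 ± 0.12, adjusted p = 0.00067). Its partner *COL6A3* was far weaker, at 0.668 and 0.321 CPM at 0 h and 3.22 and 3.05 CPM at 24 h (log2 fold change 2.66 ± 0.67, adjusted p = 0.0193). *COL9A3* was at 0.167 and 0.0459 CPM at 0 h and 2.98 and 2.93 CPM at 24 h (log2 fold change 4.77 ± 0.65, adjusted p = 0.00088), a fitted fold that depends on the prior count because untreated cells had almost no reads. *COL12A1*, a fibril-associated collagen, was at 35.4 and 37.9 CPM at 0 h and 17.8 and 21.5 CPM at 24 h (log2 fold change -0.90 ± 0.17, adjusted p = 0.0053), and *COL17A1* and *COL8A1* were the other chains that were lower (log2 fold changes -1.10 ± 0.32 and -0.53 ± 0.14, adjusted p = 0.0344 and 0.0261).

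Of 37 matrix glycoproteins and proteoglycans 12 were higher (range 6 to 17) and 0 lower (range 0 to 4), or 32.4% and 0% against 9.73% and 10.2% of all genes. *FN1*, which encodes fibronectin, was at 334 and 322 CPM at 0 h and 729.7 and 786 CPM at 24 h (log2 fold change 1.21 ± 0.13, adjusted p = 0.00031). *LTBP1*, which stores latent TGF-beta in the matrix, was at 55.4 and 53.5 CPM at 0 h and 141 and 134 CPM at 24 h (log2 fold change 1.34 ± 0.11, adjusted p = 7.56e-05). *PXDN*, which crosslinks collagen IV, was at 230.5 and 216 CPM at 0 h and 406 and 400.4 CPM at 24 h (log2 fold change 0.85 ± 0.11, adjusted p = 0.000588). The fibulin family genes *EFEMP2* and *FBLN1* were also higher (log2 fold changes 1.89 ± 0.43 and 1.53 ± 0.20, adjusted p = 0.0113 and 0.000719). Among 33 matrix modifying enzymes 8 were higher (range 5 to 15) and 4 lower (range 1 to 5), or 24.2% and 12.1%. *CEMIP* (chr15:80779370-80951771), which drives the breakdown of hyaluronan, was at 11.4 and 14.7 CPM at 0 h and 197 and 204 CPM at 24 h (log2 fold change 3.94 ± 0.15, adjusted p = 1.76e-06). *TGM2*, a crosslinking transglutaminase, was at 104 and 112 CPM at 0 h and 55.1 and 50.8 CPM at 24 h (log2 fold change -1.03 ± 0.12, adjusted p = 0.000335), and the collagen-modifying *P3H2* and *PLOD3* were lower with it (log2 fold changes -0.70 ± 0.12 and -0.44 ± 0.11, adjusted p = 0.00351 and 0.0207). The factor *CREB3L1* and the glycosyltransferase *COLGALT2* were higher (log2 fold changes 1.66 ± 0.14 and 1.04 ± 0.15, adjusted p = 8.12e-05 and 0.00121).

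Of 47 matrix proteases and their inhibitors 9 were higher (range 5 to 21) and 4 lower (range 3 to 7), or 19.1% and 8.51% against 9.73% and 10.2% of all genes, so the lower share was below the background. *ADAMTS6*, a secreted metalloprotease, had the largest drop among the named genes (21.4 and 23.5 CPM at 0 h and 2.78 and 2.00 CPM at 24 h, log2 fold change -3.23 ± 0.24, adjusted p = 4.3e-05), and *ADAMTS1* was lower too (log2 fold change -2.41 ± 0.28, adjusted p = 0.000401). *PLAU*, the urokinase gene, overlapped between the groups at 152 and 182 CPM at 0 h and 163 and 186 CPM at 24 h (log2 fold change 0.063 ± 0.27, adjusted p = 0.907). *MMP14*, the membrane-bound collagenase, missed the threshold at 94.0 and 109 CPM at 0 h and 141 and 150.3 CPM at 24 h (log2 fold change 0.52 ± 0.17, adjusted p = 0.0541). *ADAM8* was at 16.7 and 16.6 CPM at 0 h and 63.0 and 71.2 CPM at 24 h (log2 fold change 2.01 ± 0.19, adjusted p = 0.00013), and *ADAMTS15* was higher with it (log2 fold change 1.42 ± 0.16, adjusted p = 0.000301). *CST1*, a cystatin with close paralogs that can share reads, was at 11.7 and 12.8 CPM at 0 h and 38.8 and 50.9 CPM at 24 h (log2 fold change 1.87 ± 0.25, adjusted p = 0.000795).

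**Figure D3:**
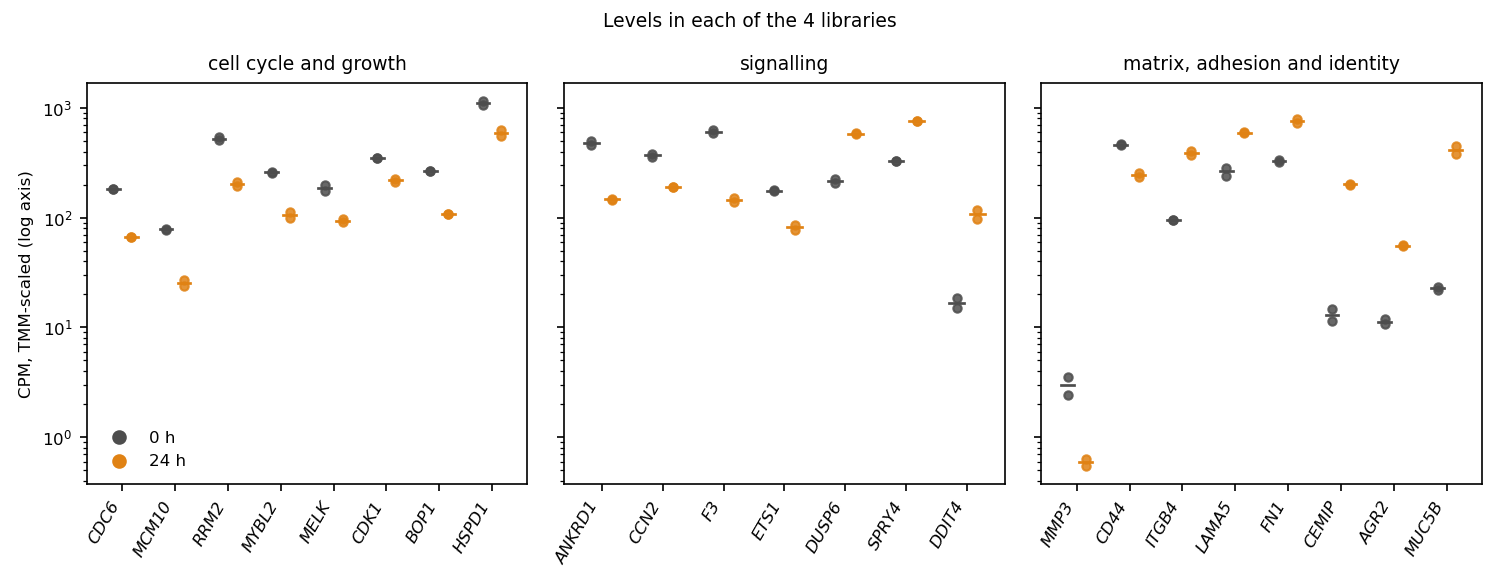
Level of 23 genes in each of the 4 libraries, in TMM-scaled CPM on a log axis, for 0 h (grey) and 24 h (orange). Points are libraries (2 a group), short lines are group means, and in each of the 23 genes both 24 h points lie on 1 side of both 0 h points.

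Genes of mucin secretion held some of the largest increases. Of 23 luminal and secretory epithelial markers 8 were higher (range 4 to 11) and 2 lower (range 1 to 3), with a median log2 fold change of 0.47. The shares were 34.8% and 8.7%, against 9.73% and 10.2% of all genes, so the lower share was below the background. *MUC5B* (chr11:1223066-1262172), a gel-forming mucin of airway and gland epithelium, was at 23.4 and 21.8 CPM at 0 h and 379.9 and 447 CPM at 24 h (log2 fold change 4.19 ± 0.24, adjusted p = 1.73e-05). Its neighbour *MUC5AC*, a close paralog that can share reads, was at 58.3 and 45.6 CPM at 0 h and 540.0 and 537 CPM at 24 h (log2 fold change 3.37 ± 0.30, adjusted p = 9.25e-05). The goblet cell factor *SPDEF* was at 8.16 and 9.82 CPM at 0 h and 43.3 and 43.5 CPM at 24 h (log2 fold change 2.27 ± 0.16, adjusted p = 3.25e-05). *AGR2*, the disulfide isomerase that folds mucins, was at 11.9 and 10.7 CPM at 0 h and 56.4 and 55.0 CPM at 24 h (log2 fold change 2.30 ± 0.19, adjusted p = 7.56e-05). A factor, a folding enzyme and 2 products of mucin secretion were thus higher in both 24 h libraries than in both controls. *MUC5B* went on to 1984 and 1906 CPM at 48 h (log2 2.23 ± 0.21, adjusted p = 0.00124). The secreted trefoil factor *TFF3*, the tight junction gene *CLDN7* and *XBP1*, a factor of the secretory apparatus, were higher too (log2 fold changes 1.43 ± 0.28, 1.19 ± 0.30 and 0.39 ± 0.10, adjusted p = 0.00538, 0.0202 and 0.0168). The keratin *KRT7*, a luminal filament, was at 308 and 309.8 CPM at 0 h and 196 and 190.1 CPM at 24 h (log2 fold change -0.68 ± 0.12, adjusted p = 0.00316), and the factor *KLF5* was lower with it (log2 fold change -0.63 ± 0.15, adjusted p = 0.0158).

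Other large increases were of mixed function. *PTGES*, the prostaglandin E synthase, was at 14.9 and 13.9 CPM at 0 h and 239.5 and 253 CPM at 24 h (log2 fold change 4.10 ± 0.28, adjusted p = 3.25e-05). *GPRC5C*, a retinoic acid-inducible receptor, was at 7.54 and 10.6 CPM at 0 h and 95.3 and 103 CPM at 24 h (log2 fold change 3.45 ± 0.17, adjusted p = 7.95e-06). *AQP3*, a channel for water and glycerol, was at 19.7 and 16.1 CPM at 0 h and 180.0 and 191 CPM at 24 h (log2 fold change 3.37 ± 0.21, adjusted p = 3.25e-05). These were weakly expressed in both untreated libraries and well expressed in both treated ones. *ENPP2*, which makes lysophosphatidic acid, was at 1.72 and 1.47 CPM at 0 h and 13.8 and 19.6 CPM at 24 h (log2 fold change 3.39 ± 0.28, adjusted p = 7.72e-05). *GDF15*, a stress cytokine, was at 2.75 and 4.36 CPM at 0 h and 34.1 and 45.0 CPM at 24 h (log2 fold change 3.47 ± 0.56, adjusted p = 0.00213). *MAP2K6*, a kinase upstream of p38, was at 2.24 and 2.02 CPM at 0 h and 23.8 and 21.1 CPM at 24 h (log2 fold change 3.39 ± 0.17, adjusted p = 8.33e-06). The lipid flippase *ATP8A1* completes the 10 largest increases by the rule for named genes (log2 fold change 3.53 ± 0.34, adjusted p = 0.000151).

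Among called genes whose groups do not overlap and whose average log2 CPM reaches 2, the largest drops besides *ADAMTS6*, *F3* and *FST* were of mixed function as well. *AOX1*, an aldehyde oxidase, was at 90.4 and 95.7 CPM at 0 h and 13.4 and 13.5 CPM at 24 h (log2 fold change -2.79 ± 0.27, adjusted p = 0.00018). *MARCHF4*, a ubiquitin ligase, was at 40.5 and 37.3 CPM at 0 h and 7.22 and 6.45 CPM at 24 h (log2 fold change -2.51 ± 0.17, adjusted p = 3.28e-05). *MIR137HG*, the host transcript of a microRNA, was at 51.3 and 53.8 CPM at 0 h and 10.01 and 11.8 CPM at 24 h (log2 fold change -2.27 ± 0.18, adjusted p = 6.89e-05). The platelet receptor *PEAR1*, *INSYN2B*, the synaptic gene *RIMS2* and *MPP4* complete the 10 (log2 fold changes -2.47 ± 0.23, -2.08 ± 0.27, -1.96 ± 0.19 and -1.95 ± 0.19, adjusted p = 0.000133, 0.000689, 0.000174 and 0.000167).

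Lipid export genes were higher in a larger share than sterol or fatty acid synthesis genes. Of 21 lipid efflux and transport genes 10 were higher (range 5 to 13) and 2 lower (range 1 to 3), with a median log2 fold change of 0.64. The shares were 47.6% and 9.52%, against 9.73% and 10.2% of all genes. *LRP1*, a lipoprotein receptor, was at 22.6 and 21.8 CPM at 0 h and 69.2 and 75.8 CPM at 24 h (log2 fold change 1.71 ± 0.16, adjusted p = 0.000157). *ABCG1*, a sterol exporter, was at 0.286 and 0.459 CPM at 0 h and 3.32 and 3.25 CPM at 24 h (log2 fold change 3.13 ± 0.42, adjusted p = 0.000783). *ABCA1*, another, was at 2.43 and 2.87 CPM at 0 h and 7.12 and 5.09 CPM at 24 h (log2 fold change 1.2 ± 0.27, adjusted p = 0.0101). Both exporters were at or below 3 CPM in untreated cells. *FABP5*, a fatty acid binding protein, was at 69.4 and 77.3 CPM at 0 h and 32.5 and 36.1 CPM at 24 h (log2 fold change -1.10 ± 0.14, adjusted p = 0.000712), and *SCARB1*, the HDL receptor, was lower with it (log2 fold change -0.58 ± 0.13, adjusted p = 0.0102). Of 25 cholesterol synthesis and uptake genes 4 were higher (range 0 to 7) and 1 lower (range 0 to 4), or 16% and 4%. *HMGCS1*, of the start of the pathway, was at 79.4 and 77.9 CPM at 0 h and 110.4 and 111 CPM at 24 h (log2 fold change 0.49 ± 0.11, adjusted p = 0.00891), *MSMO1* and *TM7SF2* were higher with it (log2 fold changes 0.43 ± 0.11 and 1.51 ± 0.31, adjusted p = 0.0217 and 0.0076), and *ACAT2* was lower (log2 fold change -0.52 ± 0.10, adjusted p = 0.00526). Of 20 fatty acid synthesis genes 4 were higher (range 1 to 7) and 2 lower (range 1 to 4), or 20% and 10%. *SREBF1*, their regulator, was at 148 and 129 CPM at 0 h and 192 and 214 CPM at 24 h (log2 fold change 0.55 ± 0.12, adjusted p = 0.00804), *ACSS2* and *ME1* were higher (log2 fold changes 0.95 ± 0.13 and 0.51 ± 0.12, adjusted p = 0.000974 and 0.0127) and *FADS3* and *ELOVL1* lower (log2 fold changes -0.84 ± 0.13 and -0.63 ± 0.18, adjusted p = 0.00156 and 0.0306). The desaturase gene *SCD* did not pass (log2 fold change 0.28 ± 0.14, adjusted p = 0.19). Among 41 lysosomal genes 13 were higher (range 3 to 27) and 1 lower (range 0 to 4), or 31.7% and 2.44%. *ARSA*, a sulfatase, was at 7.83 and 10.6 CPM at 0 h and 19.0 and 18.4 CPM at 24 h (log2 fold change 1.01 ± 0.18, adjusted p = 0.00316), *GM2A* and *ASAH1*, which act in sphingolipid breakdown, were higher (log2 fold changes 0.58 ± 0.11 and 0.55 ± 0.11, adjusted p = 0.00486 and 0.00599), and the factor gene *MITF* was lower (log2 fold change -0.57 ± 0.18, adjusted p = 0.0464).

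Hypoxia-inducible genes were higher in part. Of 33 hypoxia and glycolysis genes 11 were higher (range 8 to 17) and 2 lower (range 1 to 5). The shares were 33.3% and 6.06%, against 9.73% and 10.2% of all genes. *VEGFA*, the angiogenic factor, was at 67.2 and 69.3 CPM at 0 h and 175 and 181 CPM at 24 h (log2 fold change 1.38 ± 0.15, adjusted p = 0.000271). *NDRG1* was at 158 and 169 CPM at 0 h and 415 and 398 CPM at 24 h (log2 fold change 1.31 ± 0.13, adjusted p = 0.000189). The secreted hormone *STC1*, the carbonic anhydrase *CA9* and the aldolase *ALDOC* were higher as well (log2 fold changes 1.39 ± 0.12, 1.33 ± 0.23 and 1.39 ± 0.20, adjusted p = 8.4e-05, 0.00316 and 0.00134). *HK2*, which commits glucose to glycolysis, was at 99.5 and 99.1 CPM at 0 h and 51.1 and 51 CPM at 24 h (log2 fold change -0.96 ± 0.11, adjusted p = 0.000407), and the glycolytic mutase *PGAM1* was lower with it (log2 fold change -0.44 ± 0.13, adjusted p = 0.0399). Of 16 circadian clock genes 6 were higher (range 3 to 6) and 1 lower (range 0 to 1), or 37.5% and 6.25%. *NPAS2*, a partner of the clock activator, was at 41.7 and 36.4 CPM at 0 h and 96.7 and 101 CPM at 24 h (log2 fold change 1.34 ± 0.13, adjusted p = 0.00015), and *BHLHE41* and *BHLHE40* were higher with it (log2 fold changes 2.28 ± 0.28 and 0.98 ± 0.15, adjusted p = 0.000465 and 0.00156). The repressor *CRY1* was at 67.4 and 70.3 CPM at 0 h and 39.6 and 43.7 CPM at 24 h (log2 fold change -0.73 ± 0.14, adjusted p = 0.00566). Clock genes vary with the hour of harvest, which the sources used here do not give. Any part of that hour in these values was not tested.

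Most stress and p53 genes were not called. Of 27 genes of the integrated stress response and ER stress 2 were higher (range 0 to 7) and 3 lower (range 1 to 11), or 7.41% and 11.1% against 9.73% and 10.2% of all genes. *ATF4*, their central factor, was at 388 and 388 CPM at 0 h and 265 and 341 CPM at 24 h (log2 fold change -0.36 ± 0.25, adjusted p = 0.364). *MTHFD2*, a mitochondrial folate enzyme, was at 84.4 and 92.4 CPM at 0 h and 52.6 and 48.2 CPM at 24 h (log2 fold change -0.81 ± 0.11, adjusted p = 0.000984), the serine enzyme *PSAT1* and the factor *CEBPG* were lower with it (log2 fold changes -0.41 ± 0.11 and -0.44 ± 0.11, adjusted p = 0.0237 and 0.0159), and the ER chaperone *DNAJB9* was higher (log2 fold change 0.65 ± 0.17, adjusted p = 0.0231). Of 20 p53 target genes 3 were higher (range 2 to 8) and 1 lower (range 1 to 5), or 15% and 5%. *TP53INP1* was at 2.43 and 2.78 CPM at 0 h and 14.1 and 12.4 CPM at 24 h (log2 fold change 2.34 ± 0.21, adjusted p = 0.000101), the death receptor *TNFRSF10B* was higher (log2 fold change 0.69 ± 0.12, adjusted p = 0.0031) and the nuclease *AEN* lower (log2 fold change -1.40 ± 0.16, adjusted p = 0.000336). In the BCL2 family, *BMF*, a death-promoting member, was at 0.430 and 1.24 CPM at 0 h and 5.39 and 4.07 CPM at 24 h (log2 fold change 2.5 ± 0.40, adjusted p = 0.00211). The protective *BCL2* was at 14.6 and 15.4 CPM at 0 h and 5.19 and 6.54 CPM at 24 h (log2 fold change -1.35 ± 0.17, adjusted p = 0.000527), and with *BCL2L1* and *BOK* (log2 fold changes -0.76 ± 0.17 and -0.78 ± 0.12, adjusted p = 0.012 and 0.00197) made 3 of 15 that were lower (range 2 to 6), or 20%.

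Interferon-stimulated genes were near the control at 24 h by their median, 0.21, and the number called depended on the 12 h libraries. Of 45 such genes 6 were higher (range 1 to 21) and 1 lower (range 0 to 3), with 21 higher and 3 lower without both 12 h libraries. The shares in the main fit were 13.3% and 2.22%, against 9.73% and 10.2% of all genes. Without both 12 h libraries 20.6% of all genes were called higher and 21.9% lower. *GBP2*, a GTPase of cell-autonomous defence, was at 46.5 and 55.6 CPM at 0 h and 219 and 207 CPM at 24 h (log2 fold change 2.06 ± 0.14, adjusted p = 3.25e-05). *OAS1*, a sensor of double-stranded RNA, was at 72.3 and 80.5 CPM at 0 h and 138 and 129 CPM at 24 h (log2 fold change 0.81 ± 0.16, adjusted p = 0.00693). *STAT2*, which carries the type I interferon signal, was at 69.3 and 70.7 CPM at 0 h and 94.0 and 110.4 CPM at 24 h (log2 fold change 0.55 ± 0.12, adjusted p = 0.0119). *ISG20*, *IFI44L* and *OAS2* were the others that were higher (log2 fold changes 1.22 ± 0.36, 0.51 ± 0.13 and 0.37 ± 0.10, adjusted p = 0.0389, 0.0164 and 0.0283), and *GBP3* was lower (log2 fold change -0.39 ± 0.10, adjusted p = 0.0208). *IFIT1*, which binds viral RNA, overlapped between the groups at 416 and 459 CPM at 0 h and 463 and 440.3 CPM at 24 h (log2 fold change 0.045 ± 0.16, adjusted p = 0.888). Of 15 antigen presentation genes *TAPBP* and *PSMB10* were higher and *TAP2* lower (log2 fold changes 0.66 ± 0.17, 1.13 ± 0.34 and -1.33 ± 0.41, adjusted p = 0.0195, 0.0406 and 0.0457), with a range 0 to 6 for higher and range 0 to 1 for lower genes. The shares of this list were 13.3% higher and 6.67% lower. Among 36 NF-kappaB, chemokine and interleukin genes 6 were higher (range 3 to 11) and 1 lower (range 0 to 5), or 16.7% and 2.78%. *BCL3*, a partner of NF-kappaB, was at 11 and 10.05 CPM at 0 h and 40.3 and 48.7 CPM at 24 h (log2 fold change 2.08 ± 0.21, adjusted p = 0.0002). The growth factor *CSF1* and the adhesion receptor *ICAM1* were higher (log2 fold changes 1.02 ± 0.12 and 2.35 ± 0.27, adjusted p = 0.000324 and 0.000331) and *NFKB1* lower (log2 fold change -0.53 ± 0.10, adjusted p = 0.00502), and the cytokines *CXCL8* and *IL6* did not pass (log2 fold changes -0.40 ± 0.17 and 0.87 ± 0.54, adjusted p = 0.126 and 0.311).

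**Figure D4:**
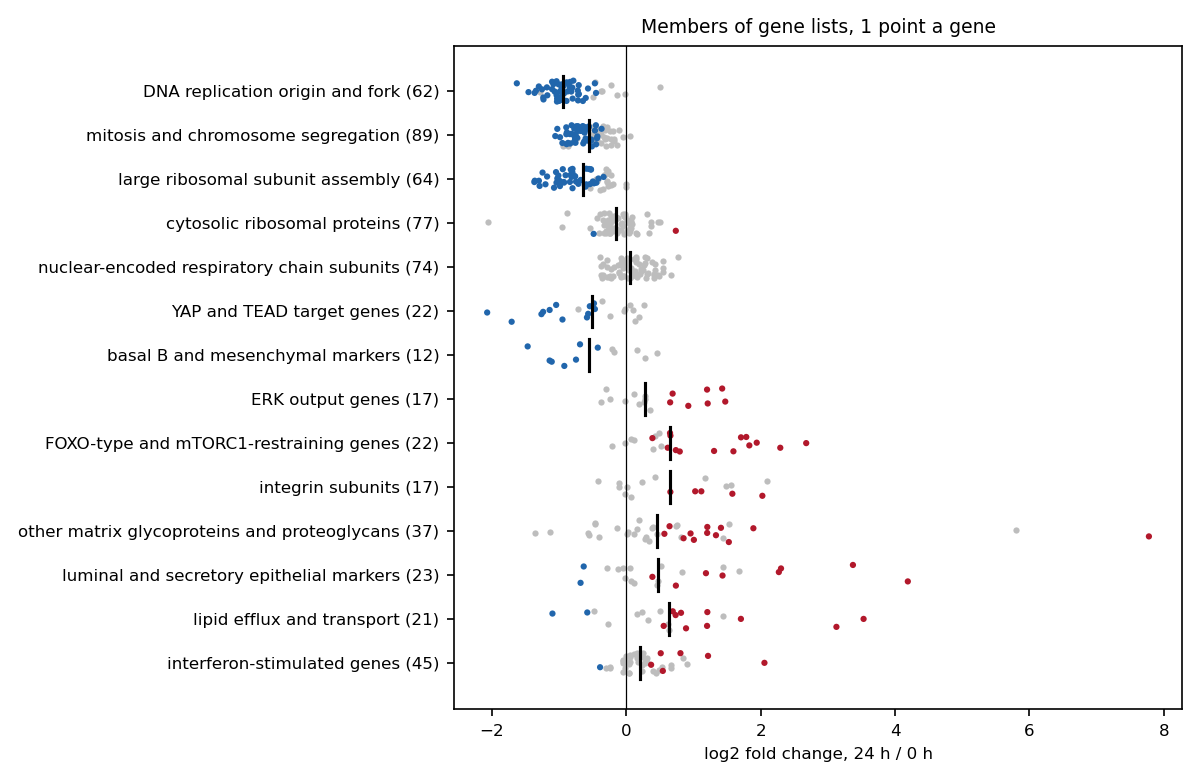
Log2 fold change of 24 h over 0 h for every tested member of 14 gene lists, 1 point a gene, with the number tested after each name. Red and blue points were called higher and lower, grey points did not pass, and black bars are list medians. Some far-right points are genes near 0 CPM in untreated cells, whose fitted fold depends on the prior count. Others, such as *MUC5B* and *MUC5AC*, were well above 0 CPM in untreated cells.

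Guidance genes were called higher more often than lower. Of 39 semaphorin, plexin, neuropilin, netrin and slit genes 13 were higher (range 6 to 16) and 5 lower (range 2 to 5), or 33.3% and 12.8% against 9.73% and 10.2% of all genes. *PLXND1*, a semaphorin receptor, was at 68.2 and 65.6 CPM at 0 h and 212 and 218 CPM at 24 h (log2 fold change 1.69 ± 0.13, adjusted p = 5.79e-05). *NRP1*, a co-receptor of VEGFA and class 3 semaphorins, was at 204 and 208 CPM at 0 h and 387 and 362 CPM at 24 h (log2 fold change 0.86 ± 0.12, adjusted p = 0.000937). Its relative *NRP2* was at 7.85 and 8.21 CPM at 0 h and 4.0 and 4.14 CPM at 24 h (log2 fold change -0.98 ± 0.18, adjusted p = 0.00395), so the 2 neuropilins moved in opposite directions. The ligand *SEMA6C* was higher, and *SEMA3E* and *SEMA7A* were lower (log2 fold changes 1.65 ± 0.24, -1.0 ± 0.15 and -1.27 ± 0.28, adjusted p = 0.00131, 0.00126 and 0.00949).

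Against 0 h, 430 genes were called at 6 h (2.73%), with 195 higher (1.24%) and 235 lower (1.49%), 3143 at 24 h (20%) and 5077 at 48 h (32.3%), with 2512 higher (16%) and 2565 lower (16.3%). Setting 24 h against 6 h shows which differences arose after the earliest treated sample. Between these times 1416 genes were higher at 24 h (9% of those tested) and 1517 lower (9.65%), or 3170 and 3414 without both 12 h libraries (20.2% and 21.7%). Ranges again leave out 1 library in turn, with the high end from a 12 h library. Of the replication genes 53 of 62 were lower at 24 h than at 6 h (range 42 to 58), with medians against 0 h of 0.13 at 6 h and -0.93 at 24 h. *CDC6* was at 189 and 179 CPM at 6 h and 66.5 and 66.1 CPM at 24 h (log2 -1.47 ± 0.10, adjusted p = 3.64e-05), so its drop fell between these samples. In mitosis 47 of 89 were lower than at 6 h (range 19 to 68), and in large subunit assembly 34 of 64 (range 14 to 50). Interferon-stimulated genes went the other way, with 34 of 45 higher at 24 h than at 6 h (range 27 to 41) and 0 lower (range 0 to 0). Their medians against 0 h were -0.78 at 6 h and 0.21 at 24 h. *IFIT1* was at 168 and 167 CPM at 6 h and 463 and 440.3 CPM at 24 h (log2 1.43 ± 0.17, adjusted p = 0.000473). The 24 h level near the control thus followed a lower level at 6 h. Of the ERK output genes 9 of 17 were higher than at 6 h (range 6 to 11), and of the 22 YAP targets 5 were higher (range 1 to 11) and 2 lower (range 2 to 6).

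From 24 h to 48 h 500 genes changed (3.18%), of which 298 were higher (1.89%) and 202 lower (1.28%), or 1675 and 1840 without both 12 h libraries (10.7% and 11.7%), and the lowest counts with 1 library left out were 7 higher and 5 lower. Mitotic genes took a large place in the lower set, with 60 of 89 lower at 48 h (range 4 to 87), and their median against 0 h went from -0.56 to -1.40. *CCNB1* was at 227 and 226 CPM at 24 h and 94.7 and 102 CPM at 48 h (log2 -1.2 ± 0.10, adjusted p = 0.000948). *FOXM1* was at 174 and 152 CPM at 24 h and 91.8 and 79.0 CPM at 48 h (log2 -0.93 ± 0.12, adjusted p = 0.00525). Both had a larger log2 difference between 24 h and 48 h than between 0 h and 24 h, which was not tested. Of the replication genes 4 of 62 were lower at 48 h than at 24 h (range 0 to 34). Their median against 0 h went from -0.93 to -1.21, and their median at 48 h against 24 h was -0.32. *CDT1* was lower at 48 h than at 24 h (log2 -0.72 ± 0.16, adjusted p = 0.0362). *CDC6* was at 66.5 and 66.1 CPM at 24 h and 69.0 and 64.0 CPM at 48 h (log2 0.0044 ± 0.10, adjusted p = 0.992). Of the interferon-stimulated genes 21 of 45 were higher (range 1 to 37), for a median against 0 h of 0.79. *IFIT1* was at 463 and 440.3 CPM at 24 h and 688 and 710.0 CPM at 48 h (log2 0.63 ± 0.16, adjusted p = 0.0772). *ITGB4* was at 402 and 375 CPM at 24 h and 909 and 798 CPM at 48 h (log2 1.14 ± 0.16, adjusted p = 0.0066). *NDRG1* was at 415 and 398 CPM at 24 h and 1267 and 1128 CPM at 48 h (log2 1.56 ± 0.13, adjusted p = 0.000948). *CST1* was higher again by a wide margin, at 491 and 524 CPM (log2 3.50 ± 0.26, adjusted p = 0.000948), and *MAP2K6* turned back (23.8 and 21.1 CPM at 24 h and 11.2 and 10.5 CPM at 48 h, log2 -1.05 ± 0.15, adjusted p = 0.00756). The comparisons share the 0 h or the 24 h libraries, so their values are set side by side and are not independent observations.

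**Figure D5:**
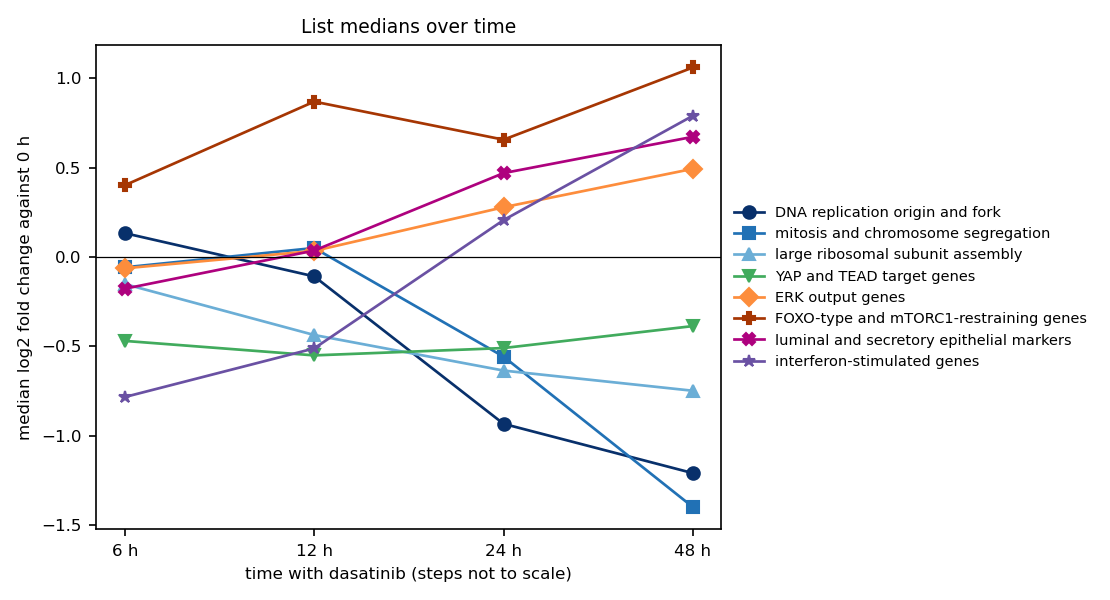
Median log2 fold change against 0 h (vertical axis) of 8 gene lists at 6, 12, 24 and 48 h (horizontal axis, steps not to scale), all against the same 0 h libraries. The replication median lies at 0.13 at 6 h and -0.93 at 24 h, the mitosis median at -0.56 at 24 h and -1.40 at 48 h, and the interferon median at -0.78 at 6 h and 0.79 at 48 h, and the 12 h values rest in part on the library that stood apart.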

How the data were processed

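RNA from 10 MDA-MB-231 cultures (0, 6, 12, 24 and 48 h with dasatinib, 2 biological replicates each) was sequenced as 150 bp paired-end reads. The dose of 100 nM was taken from a legend of the study. The deposited raw counts per gene symbol were made by the authors with Trim Galore, STAR 2.5.2b (build hg38) and featureCounts. The annotation and strand setting of the counting are not given in the sources used here, so overlapping and antisense genes cannot be separated. The deposited TPM values, scaled by the authors for gene length and library total, served as an alternative.

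Counts passing edgeR's filterByExpr (15727 of 36687 symbols) were TMM-scaled and fitted with a mean per group over all 10 libraries (edgeR 4.0.16, robust quasi-likelihood F test, R 4.3.3), with Benjamini-Hochberg adjustment and a threshold of 0.05. The SE is the log2 fold change divided by the square root of F. CPM in the text carry no prior count. The groups were taken from the sample titles. Alternatives were other scaling and filters, DESeq2 1.42.0, limma 3.58.1 on log2(TPM + 1) and log2(TPM + 0.1), a replicate block, glmTreat at 1.5-fold, a threshold of 0.01 and leaving out libraries.

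Named genes were key genes of the study and of the pathways, the 10 largest changes in each direction among called genes whose groups do not overlap and whose average log2 CPM reaches 2, and up to 3 called members a list and direction by adjusted p. A further 29 genes were named after their values were seen. Some genes under this rule are not reported here. The genes, lists and motifs were chosen with earlier results of these data known. On simulated counts for the comparison of 24 h with 0 h, 66% of 100 genes changed 2-fold and 91% of 100 changed 4-fold were recovered among 15327 genes. Of the unchanged genes 9 were called. The changed genes were drawn from those above a floor on mean CPM, so recovery of weaker genes was not simulated. No simulated library was made to stand apart as replicate 1 at 12 h did.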

Additional observations from a re-analysis of the deposited data

Results flagged for a closer look

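Against 0 h, 22 genes were called in opposite directions at 6 h and at 24 h, of which 19 were lower at 6 h and higher at 24 h and 3 the reverse, and 7 of them are named genes. Genes chosen in this way must differ between the times, so the log2 differences between 24 h and 6 h are given as a description, with no test. *ITGB4* went from a log2 fold change of -0.90 (6 h) to 2.03 (24 h), a difference of 2.93. *ABCA1* went from -1.5 to 1.203, a difference of 2.70. *INHBB* went from -1.29 to 1.06, a difference of 2.36. *OAS1* went from -0.78 to 0.81, a difference of 1.59. Genes of cholesterol synthesis did likewise, *HMGCS1* from -0.48 to 0.49, a difference of 0.98, and *MSMO1* from -0.50 to 0.43, a difference of 0.94. *PSAT1*, of serine synthesis, went from 0.60 to -0.41, a difference of -1.002. Each value rests on 2 libraries a group, and both times share the 0 h libraries. Groups of 2 libraries were too small to test for a library far from the others.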

How the results depend on the processing

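The counts of called genes depended more on which libraries shared the estimate of the spread than on scaling or tool, and results are given as higher and lower genes. For 24 h against 0 h (1531 and 1612) the counts were 3107 and 3378 with edgeR on the 4 libraries alone, 2800 and 3193 with DESeq2 on those 4, 3236 and 3451 without both 12 h libraries, 780 and 864 at a threshold of 0.01 and 400 and 207 against 1.5-fold. Leaving out 1 library gave 654 to 3235 and 590 to 3451. DESeq2-type size factors gave 1552 and 1562, DESeq2 on all libraries 1937 and 1914, no filter 1947 and 1898, and limma 1550 and 1130 with a pseudocount of 1, 1563 and 1124 with 0.1, and 1308 and 892 without a filter. For 24 h against 6 h (1416 and 1517) the counts were 3337 and 3523 (edgeR on 4), 2980 and 3236 (DESeq2 on 4), 3170 and 3414 (without 12 h), 712 and 719 (0.01) and 313 and 196 (1.5-fold), the lower genes were 986, 981 and 796 in the 3 limma fits, and 1 library left out gave 569 to 3157 and 519 to 3419. For 48 h against 24 h (298 and 202) they were 547 and 611 without a filter, 650 and 472 with DESeq2 on all, 1718 and 1668 with DESeq2 on 4, 1868 and 1905 with edgeR on 4, 1675 and 1840 without 12 h, 80 and 56 at 0.01 and 20 and 6 against 1.5-fold. There limma called 183 higher genes with a pseudocount of 0.1 and 122 and 105 without a filter, and 1 library left out gave 7 to 1681 and 5 to 1854. The cause was not tested, except that the stricter threshold and the fold limit leave fewer genes by construction.

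Same-numbered libraries at 0 h and 24 h showed no shared deviation from their group means (correlation -0.0176). The correlation was 0.104 between 12 h and 24 h. Whether same-numbered cultures were grown as pairs is not known from these values. A replicate block gave 1496 higher and 1568 lower genes. Of the 263 named genes, 261 stayed on their side of the threshold with DESeq2 on all libraries, 257 with the block and 250 without both 12 h libraries, where the other 13 became called. Leaving out a 0 h or 24 h library took 65 to 72 of them past the threshold to not called. The sign reversed in 4 genes that were not called, with 1 library left out: *CDH2* (-0.014 to 0.37) without replicate 2 at 24 h, *CDKN1A* (-0.0027 to 0.18) and *IFIT1* (-0.024 to 0.12) without replicate 1 at 0 h, and *PLAU* (-0.063 to 0.20) without either of these (-0.036 without replicate 2 at 24 h).

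With 2 libraries a group, a gene not called was not shown to be level, and no alternative separates the drug from time in culture.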
